A study of Homo sapiens with 32 samples.

Results

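The genes described here are 10 genes of the m6A machinery: the writers METTL3, METTL14, WTAP, VIRMA and ZC3H13, the erasers FTO and ALKBH5, and the readers YTHDF1, YTHDF2 and YTHDF3. They were chosen by name, as the rows of the count table whose Ensembl gene identifier carries one of these symbols, and all 10 were found among the 60660 gene identifiers of the table. Each passed the filter on low counts in each comparison. The lowest count of any member in any library was 602 (METTL3) and the highest 5141 (YTHDF2).

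The libraries came from HCT116, a human colorectal carcinoma line, in a derivative that carries a doxycycline-inducible (tetON) OsTIR1 transgene, the rice auxin receptor used to degrade tagged proteins. The transgene is shared by every group, the parental controls included. There were 6 groups: parental cells in DMSO (4 libraries) and in tunicamycin (4), IGF2BP3 knockout in DMSO (6) and in tunicamycin (6), and IGF2BP2 knockout in DMSO (6) and in tunicamycin (6). Knockouts had been made by transient transfection of Cas9 with a guide RNA, and each is represented by 3 single-cell clones: A3, D12 and E4 for IGF2BP3, and B7, F6 and G6 for IGF2BP2, with 2 libraries per clone and treatment. Clones A3 and E4 share a guide RNA that differs from that of D12, and B7 and F6 share a guide RNA that differs from that of G6. The parental groups hold 2 samples with 2 libraries each. Tunicamycin, which blocks N-linked glycosylation and stresses the endoplasmic reticulum, was given at 5 µg/mL for 4 h to parental cells and IGF2BP3 knockout clones, with DMSO, the solvent, as the control. For the IGF2BP2 knockout clones, dose and time are not given in the sources used here. Nothing in the labels says that the libraries of one line came from separate cultures, so p-values measure the spread between these libraries, which may be partly technical.

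N6-methyladenosine (m6A) is an internal mark of messenger RNA. It is placed in the nucleus by a complex whose catalytic core is the METTL3 and METTL14 heterodimer, with WTAP, VIRMA and ZC3H13 among the subunits that position the core and keep it in the nucleus. FTO and ALKBH5 are dioxygenases that can remove it, and the YTHDF proteins bind it in the cytoplasm, where YTHDF2 brings bound mRNA to the CCR4-NOT deadenylase. The IGF2BP proteins, whose genes were edited here, are also described as m6A readers, and they stabilize bound mRNA. The assay measured the level of each member's mRNA. It did not measure m6A, protein or RNA decay.

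Total counts ran from 16651438 to 24913021 per library. In DMSO, IGF2BP3 mRNA stood at 70.0 to 82.8 CPM (counts scaled to a common library size with TMM normalization) in parental cells and at 18.7 to 41.7 CPM in IGF2BP3 knockout. IGF2BP2 mRNA stood at 159 to 195 CPM in parental cells and at 81.2 to 92.7 CPM in IGF2BP2 knockout. The edited genes' mRNA was therefore lower but present in the knockouts, and whether their proteins were absent was not measured. The stress genes HSPA5 (the chaperone BiP), DNAJB9 and DDIT3 rose in tunicamycin in all 3 genotypes. For the control libraries of clone G6 the treatment label and the title disagree, and the title was followed. HSPA5 stood at 821 to 991 CPM in the clone G6 control libraries, at 773 to 1108 CPM in the other DMSO libraries and at 7909 to 10896 CPM in tunicamycin. Of 8 colorectal epithelial markers, 6 had a median of at least 1 CPM. CDH17 and VIL1 lay near 0 (medians of 0.0924 and 0 CPM). Of 4 markers of other cells, PTPRC, COL1A2 and PECAM1 had a median of 0 CPM and COL1A1 a median of 9.29 CPM.

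In parental cells in DMSO, the readers YTHDF2 and YTHDF1 were the most abundant members per length and FTO the least. Levels between genes were compared per kilobase of merged exon, as CPM per kilobase. YTHDF2 stood at 48.1 ± 4.58 (SD, n = 4), YTHDF1 at 31.1 ± 2.04, ALKBH5 at 24.9 ± 1.16 and YTHDF3 at 22.2 ± 1.11. VIRMA (15.6 ± 0.275), ZC3H13 (15.2 ± 0.713) and WTAP (14.2 ± 0.928) came next, followed by METTL3 at 9.51 ± 1.00, METTL14 at 6.60 ± 0.403 and FTO at 2.40 ± 0.165. The libraries of VIRMA and ZC3H13 overlapped, as did those of ZC3H13 and WTAP, and every other pair of neighbours in this order was separated in the 4 libraries. With the length of the longest transcript in place of the merged exons, WTAP, METTL3 and ZC3H13 ranked 6, 7 and 8, so the order within that stretch depends on the gene model. Exons of METTL3 overlap those of TOX4 on the opposite strand, WTAP those of SOD2, FTO those of AC007347.2 and ALKBH5 those of AC087164.1. Whether counting used the strand is not given in the sources used here, so reads of such partners cannot be told apart from those of the members.

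Tunicamycin lowered the mRNA of the 3 YTHDF readers in each genotype. The catalytic writer METTL3 changed by -22.7% in parental cells, -22.8% in IGF2BP3 knockout and -24.0% in IGF2BP2 knockout. It passed the test in both knockouts and missed it in parental cells (adjusted p 0.0639). YTHDF2 changed by -23.3% in parental cells, -23.0% in IGF2BP3 knockout and -20.9% in IGF2BP2 knockout. The other writers and FTO did not pass the test in any genotype, and the eraser ALKBH5 passed it only in IGF2BP2 knockout. In all, 3 of 10 members were called in parental cells, 4 of 10 in IGF2BP3 knockout and 5 of 10 in IGF2BP2 knockout at an adjusted p under 0.05, and every called member was lower in tunicamycin. Over all genes tested, 26.8%, 33.8% and 40.1% were called in these comparisons, and 14.3%, 17.6% and 20.9% were called and lower. The members' median log2 fold change was -0.12, -0.13 and -0.10, against -0.01 over all genes in each comparison. The share of members called is near that background, and the share called lower is above it. With 10 genes chosen by name, neither was tested. In bulk RNA, fewer cells of a type and less RNA per cell cannot be told apart. Adjusted p-values here and below come from the quasi-likelihood test of edgeR, adjusted over all genes tested by the method of Benjamini and Hochberg.

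**Figure D1:**
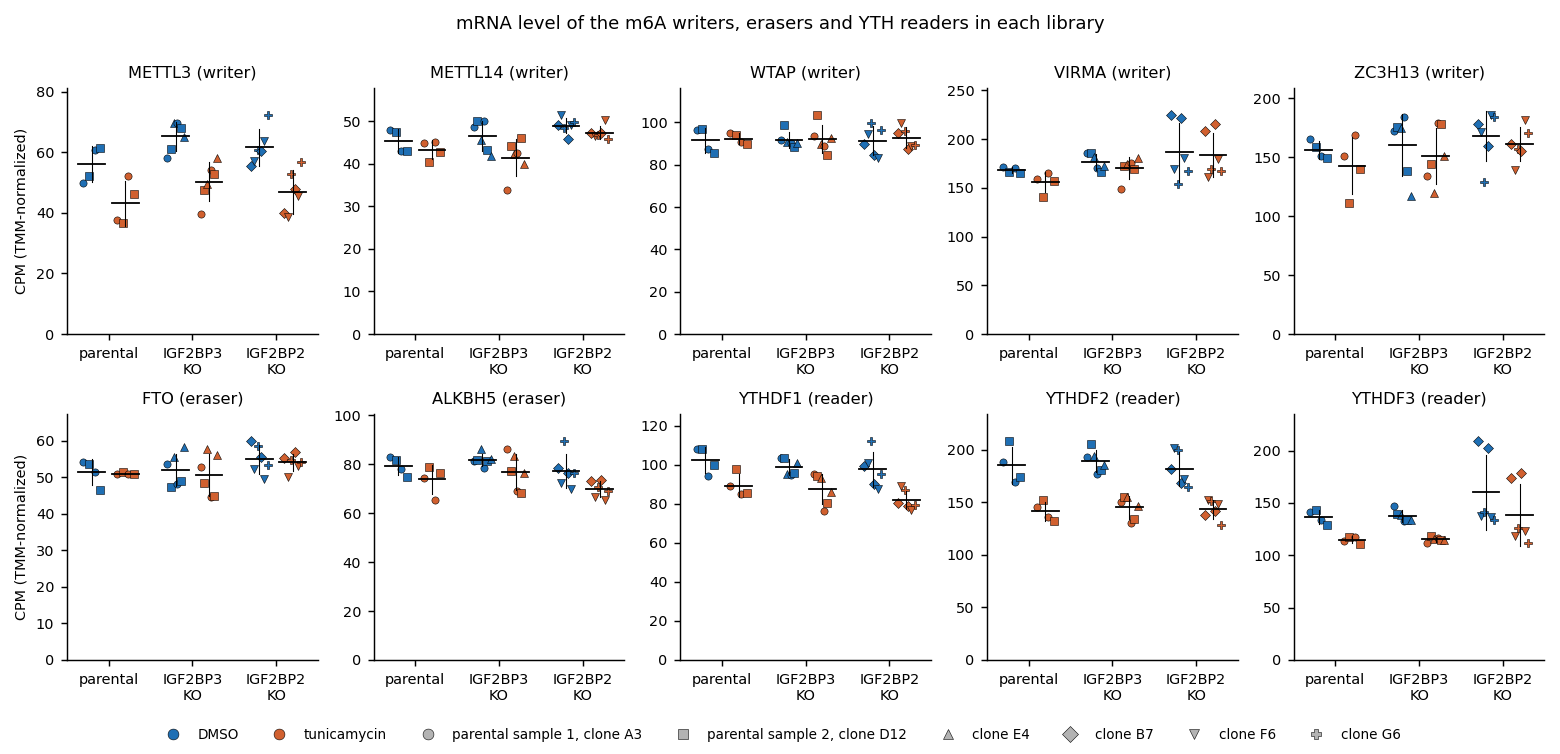
CPM of each member in each library. Each point is 1 library, blue for DMSO and orange for tunicamycin, with the marker shape giving the parental sample or clone; horizontal lines are group means and vertical lines 1 SD. YTHDF2 in tunicamycin (129 to 156 CPM) lies below its DMSO libraries (165 to 209 CPM), and clone B7 stands above the other clones for VIRMA and YTHDF3.

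METTL3 (ENSG00000165819_12, chromosome 14 from 21498133 to 21511375, minus strand, GRCh38), the methyltransferase subunit, stood at 49.8 and 60.7 CPM in parental sample 1 and at 52.2 and 61.4 CPM in parental sample 2 in DMSO, replicates 1 and 2 in that order. In tunicamycin the same samples stood at 37.5 and 52.2 CPM, and at 36.8 and 46.4 CPM. The second replicate was the higher one in each of these pairs, and 1 tunicamycin library (52.2 CPM) lay within the DMSO range. IGF2BP3 knockout ran from 58.2 to 69.8 CPM (median 66.6) in DMSO and from 39.5 to 58.0 CPM (median 51.2) in tunicamycin, with no overlap. IGF2BP2 knockout ran from 55.3 to 72.4 CPM (median 60.6) in DMSO and from 38.6 to 56.9 CPM (median 46.7) in tunicamycin, where clone G6 overlapped the DMSO range. The log2 fold change was -0.37 in parental cells (SE 0.131, adjusted p 0.0639), -0.37 in IGF2BP3 knockout (SE 0.0821, adjusted p 0.00257) and -0.40 in IGF2BP2 knockout (SE 0.0716, adjusted p 0.000456). The parental difference missed the threshold although its size was that of the knockouts. It passed in 7 of 12 alternative fits, with adjusted p values from 1.22e-05 to 0.0859. When each tunicamycin library was set against the DMSO library of the same line and replicate number, METTL3 was lower in 16 of 16 pairs, by 0.17 to 0.57 on the log2 scale. The labels do not pair the libraries, so such pairs are descriptive. Here and below, the share of all genes lower in every pair, or without overlap between treatments, is not given.

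The level of METTL3 also differed by replicate number. Replicate 1 libraries averaged 58.0 CPM in DMSO and 42.8 CPM in tunicamycin, and replicate 2 libraries 65.2 and 51.7 CPM. Within replicate 1 the tunicamycin libraries ran from 36.8 to 52.8 CPM against 49.8 to 69.6 CPM in DMSO, and within replicate 2 from 45.5 to 58.0 CPM against 60.5 to 72.4 CPM. The lower METTL3 level in tunicamycin therefore held within each replicate number, with overlap in replicate 1 and none in replicate 2. Other members moved with the replicate number too. YTHDF2 averaged 197 CPM in DMSO and 150 CPM in tunicamycin in replicate 1, against 174 and 137 CPM in replicate 2. YTHDF1, YTHDF3, WTAP, FTO and ALKBH5 were also higher in replicate 1 in both treatments, while METTL14, VIRMA and ZC3H13 were so in DMSO alone.

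The log2 fold changes of the other 4 writers lay between -0.16 and 0.03, and none passed the test. METTL14 (ENSG00000145388_15, chromosome 4 from 118685368 to 118715433, plus strand), the RNA-binding partner of METTL3, had a median of 45.2 CPM in parental cells in DMSO and 43.8 CPM in tunicamycin. Its log2 fold changes were -0.06 in parental cells, -0.16 in IGF2BP3 knockout (adjusted p 0.0971) and -0.05 in IGF2BP2 knockout, and 12 of 16 pairs were lower. WTAP (ENSG00000146457_16, chromosome 6 from 159725585 to 159756319, plus strand), the subunit that brings the core to nuclear speckles, differed by 0.02, 0.01 and 0.03, and its 16 pairs ran from -0.11 to 0.09 with 7 lower. The interval of the WTAP difference (1.96 SE to each side) was -0.08 to 0.12 in parental cells.

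VIRMA (ENSG00000164944_12), the large scaffold of the complex, differed by -0.11 in parental cells (SE 0.0543, adjusted p 0.185), by -0.05 in IGF2BP3 knockout and by -0.01 in IGF2BP2 knockout. Of its 16 pairs 11 were lower, among them all 4 parental pairs, by 0.04 to 0.24 on the log2 scale. The parental difference passed in 1 of 12 alternative fits, with adjusted p values from 0.0341 to 0.429. ZC3H13 (ENSG00000123200_17, chromosome 13 from 45954465 to 46052759, minus strand), a zinc finger protein that helps to hold the complex in the nucleus, differed by -0.13, -0.08 and -0.06 in the same order. Its libraries were scattered, with SDs of 7.32 to 26.5 CPM within groups around means of 143 to 168 CPM. Its parental interval ran from -0.32 to 0.05 and so holds a decrease of the size found for the reader YTHDF3.

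The erasers showed small differences. FTO (ENSG00000140718_21, chromosome 16 from 53701692 to 54158512, plus strand), an m6A and cap-adjacent m6Am demethylase, stood at 46.4 to 54.3 CPM in parental DMSO libraries and at 50.9 to 51.3 CPM in tunicamycin. Its log2 fold changes were -0.01, -0.03 and -0.02, with a parental interval of -0.11 to 0.10. ALKBH5 (ENSG00000091542_9, chromosome 17 from 18183078 to 18209954, plus strand), a nuclear m6A demethylase, ran from 70.0 to 89.6 CPM (median 76.4) in IGF2BP2 knockout in DMSO and from 65.4 to 73.4 CPM (median 69.8) in tunicamycin, and these groups overlapped. The difference was -0.14 (SE 0.0423, adjusted p 0.0151). It was -0.10 in parental cells (adjusted p 0.255) and -0.09 in IGF2BP3 knockout (adjusted p 0.239), and 14 of 16 pairs were lower. Without the clone G6 control libraries the ALKBH5 difference in IGF2BP2 knockout was -0.09 with an adjusted p of 0.140, and it also lost its call without clone F6, without clone G6 and without the line term.

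All 3 readers were lower in tunicamycin in 16 of 16 pairs. YTHDF2 (ENSG00000198492_16, chromosome 1 from 28736621 to 28769775, plus strand), the reader best known for mRNA decay, stood at 189, 209, 169 and 175 CPM in the 4 parental DMSO libraries. It stood at 145, 153, 137 and 132 CPM in the tunicamycin libraries of the same sample and replicate number. IGF2BP3 knockout ran from 177 to 205 CPM (median 189.6) in DMSO and from 130.3 to 156 CPM (median 148) in tunicamycin. IGF2BP2 knockout ran from 165 to 202 CPM (median 177) and from 129 to 153 CPM (median 145). The treatment groups did not overlap in any genotype, and 16 of 16 pairs were lower, by 0.21 to 0.45 on the log2 scale. The share of all genes that did so is not given here. The log2 fold changes were -0.38 in parental cells (SE 0.0663, adjusted p 0.00195), -0.38 in IGF2BP3 knockout (SE 0.0486, adjusted p 2.88e-05) and -0.34 in IGF2BP2 knockout (SE 0.0531, adjusted p 0.000137). These calls held in 12 of 12, 11 of 11 and 12 of 12 alternative fits.

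YTHDF3 (ENSG00000185728_17), which binds many of the same mRNAs as the other YTHDF proteins, stood at 141, 144, 134 and 129 CPM in the parental DMSO libraries and at 114, 118, 117 and 111 CPM in tunicamycin. IGF2BP3 knockout ran from 133 to 147 CPM (median 136) in DMSO and from 111 to 119 CPM (median 115) in tunicamycin. Neither genotype overlapped between treatments. In IGF2BP2 knockout the ranges of 134 to 209.5 CPM and 112 to 178 CPM overlapped, since clone B7 stood far above the other 2 clones in both treatments. The log2 fold changes were -0.25 (SE 0.0476, adjusted p 0.00366), -0.25 (SE 0.0368, adjusted p 9.47e-05) and -0.20 (SE 0.0358, adjusted p 0.000366). With no line term the call in IGF2BP2 knockout was lost (adjusted p 0.364).

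YTHDF1 (ENSG00000149658_18, chromosome 20 from 63195429 to 63216234, minus strand), described mainly as a reader that promotes translation, changed less than YTHDF2 in each genotype. It ran from 94.2 to 108 CPM in parental DMSO libraries and from 85.2 to 97.7 CPM in tunicamycin, with overlap, and all 16 pairs were lower. The log2 fold changes were -0.20 in parental cells (SE 0.0571, adjusted p 0.0299), -0.17 in IGF2BP3 knockout (SE 0.0561, adjusted p 0.0299) and -0.25 in IGF2BP2 knockout (SE 0.0525, adjusted p 0.00155). The parental call held in 7 of 12 alternative fits and was weakest without parental sample 1 replicate 1 (adjusted p 0.146). The call in IGF2BP3 knockout was lost whenever any 1 of the 3 clones was left out, with the highest adjusted p of 0.126 without clone D12. In IGF2BP2 knockout it held in 12 of 12.

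**Figure D2:**
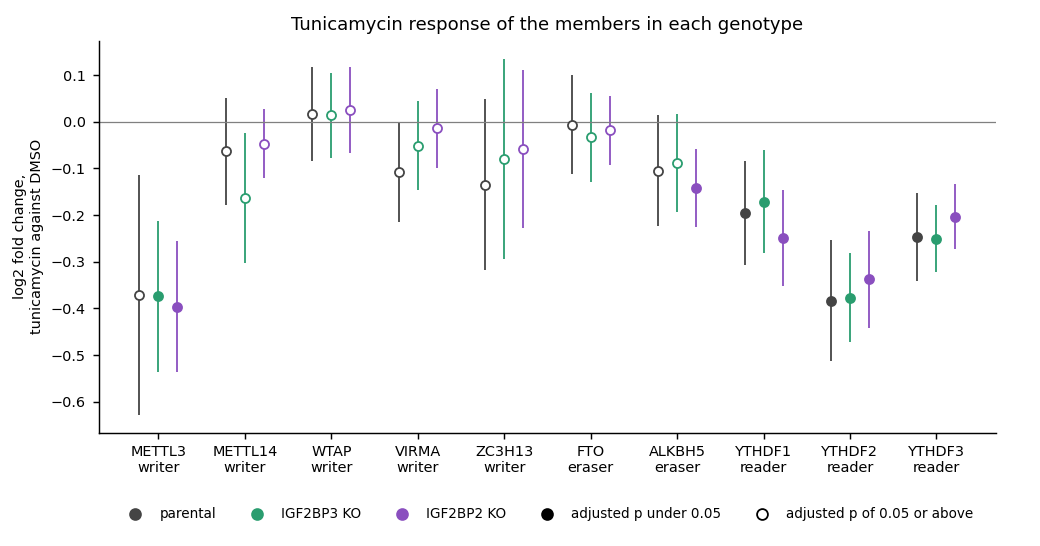
Log2 fold change of tunicamycin against DMSO for each member, with 1.96 SE to each side, in parental cells, IGF2BP3 knockout and IGF2BP2 knockout. Filled points have an adjusted p under 0.05; METTL3 and YTHDF2 reach -0.34 to -0.40 in all 3 genotypes, while WTAP and FTO lie between -0.03 and 0.03.

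METTL3 and the 3 YTHDF readers were lower in tunicamycin, and the DNA before the start sites of METTL3, YTHDF1 and YTHDF2 is shown. Windows of 250 bases before RefSeq start sites (GRCh38.p14) were matched for 8 of the 10 members, in 10 windows, and VIRMA and YTHDF3 were not matched. The stretches below run 5′ to 3′ on the gene's strand and stop where an annotated exon begins. METTL3 is at chr14:21511376-21511590 on the minus strand, YTHDF1 at chr20:63216235-63216381 on the minus strand and YTHDF2 at chr1:28736374-28736620 on the plus strand. Capitals mark matches to AANATGGC and CCGGAAG in METTL3 and to GGGCGG in YTHDF1 and YTHDF2, on either strand.
METTL3: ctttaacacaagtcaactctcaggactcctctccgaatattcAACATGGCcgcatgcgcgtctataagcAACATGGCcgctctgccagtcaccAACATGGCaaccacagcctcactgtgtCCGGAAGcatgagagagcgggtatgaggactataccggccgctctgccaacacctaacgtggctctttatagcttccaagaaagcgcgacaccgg
YTHDF1: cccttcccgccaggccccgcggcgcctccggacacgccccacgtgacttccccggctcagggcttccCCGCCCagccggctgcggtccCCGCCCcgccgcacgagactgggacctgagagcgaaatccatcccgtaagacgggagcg
YTHDF2: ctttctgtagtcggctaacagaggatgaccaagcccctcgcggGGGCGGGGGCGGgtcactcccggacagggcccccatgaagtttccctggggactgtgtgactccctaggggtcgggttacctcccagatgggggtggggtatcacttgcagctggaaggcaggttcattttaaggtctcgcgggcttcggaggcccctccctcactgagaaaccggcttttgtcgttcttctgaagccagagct

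None of the 10 member windows held the letters of 3 elements named for the unfolded protein response. These were CCAAT and CCACG with 9 open bases between them (the ER stress response element, in 0.0740% of all 35116 windows of the same length), TGATGNAA (the composite element bound by ATF4 and its partners, in 3.14%) and TGACGTGG (the unfolded protein response element, in 0.612%). CCGGAAG, the letters of an ETS site, occurred in 3 of 10 member windows (METTL3, METTL14 and ZC3H13) and in 8.52% of all windows. GGGCGG, the letters of an SP/KLF site, occurred in 6 of 10 member windows and in 42.6% of all windows. Those 6 lay before 4 members (WTAP, ALKBH5, YTHDF1 and YTHDF2). AANATGGC, the letters of a YY1 site, occurred in 2 of 10 member windows and in 3.86% of all windows. Those 2 lay before METTL3 (3 times, as printed above) and WTAP. Motifs were searched on both strands, and none of those in the printed stretches overlaps another. A match describes these letters in this window only.

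The genes whose pattern was most like that of YTHDF2, the member with the largest change in parental cells, were LARGE2 (Pearson's r 0.983), OGFR (0.982) and TFAP2E (0.982). Likeness was taken over the 16 means of line and treatment on the log2 CPM scale, among 10208 named genes whose counts averaged 100 or more. These points share libraries and treatment, so the values describe these means only. In parental cells the 3 genes changed by -0.71, -0.72 and -0.92 on the log2 scale, more than YTHDF2 itself. They were picked for following YTHDF2 over both treatments, so their fall, though not its size, follows from the choice. Among the members, YTHDF2 followed YTHDF1 (r 0.887) and METTL3 (0.842) over the 16 means. Over the 8 DMSO means alone these values were 0.252 and 0.413.

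The treatment response was also compared between genotypes. No member passed the interaction test for IGF2BP3 knockout against parental cells, IGF2BP2 knockout against parental cells or IGF2BP3 against IGF2BP2 knockout, where 0%, 0% and 0% of all genes were called by edgeR. DESeq2 also called 0 genes in each. At an unadjusted p under 0.05 edgeR's 3 tests held 255, 213 and 271 genes, with 0 members among them. The largest difference of any member was 0.09, 0.10 and 0.11 on the log2 scale. For YTHDF2 the response differed by 0.01 between IGF2BP3 knockout and parental cells (interval -0.15 to 0.18) and by 0.05 between IGF2BP2 knockout and parental cells (interval -0.14 to 0.24). For METTL3 the same intervals were -0.30 to 0.31 and -0.30 to 0.25, so a difference as large as the response itself is not far outside them. Comparisons with parental cells share the same 8 parental libraries.

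No member passed the test between genotypes. IGF2BP3 knockout against parental cells called 0 of 10 members in DMSO, where 1.61% of all genes were called, and 0 of 10 in tunicamycin (0.718% of all genes). IGF2BP2 knockout against parental cells called 0 of 10 in DMSO and 0 of 10 in tunicamycin, beside 0.0137% and 0.00694% of all genes. IGF2BP3 knockout against IGF2BP2 knockout called 0 of 10 in each treatment, beside 0.589% and 0.391%. DESeq2 also called 0 members in each of these 6 comparisons. At an unadjusted p under 0.05, edgeR's test held 1 member in DMSO and 0 in tunicamycin for IGF2BP3 knockout, 1 and 2 for IGF2BP2 knockout, and 0 and 3 between the knockouts. METTL3 was the member with the largest difference in IGF2BP3 knockout, at 0.22 in DMSO (SE 0.0797, adjusted p 0.220) and 0.22 in tunicamycin (SE 0.125, adjusted p 0.618). Its mean in DMSO was 65.3 ± 4.78 CPM (SD, n = 6) in the knockout and 56.1 ± 5.90 CPM (SD, n = 4) in parental cells. It was called in 1 of 14 alternative fits, and its adjusted p ran from 0.0410 to 0.505 over them.

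In IGF2BP2 knockout the largest differences from parental cells were those of YTHDF3 (0.23 in DMSO, SE 0.133, adjusted p 0.983) and VIRMA (0.15, SE 0.101, adjusted p 0.983). In tunicamycin they were 0.27 (SE 0.131) and 0.24 (SE 0.0913), each with an adjusted p of 0.695. Without clone B7, YTHDF3 differed by 0.01 in DMSO and by 0.06 in tunicamycin, and VIRMA by -0.000406 and by 0.12.

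More members passed the test among clones of one knockout than between a knockout and parental cells, and so did more of all genes. These tests are not alike. The fit between genotypes had no line term, so spread between clones counted against a difference there, while the test among clones measured that spread. Among the 3 IGF2BP2 knockout clones, with treatment as a covariate, 5 of 10 members differed: METTL3 (adjusted p 0.0477), VIRMA (7.91e-05), FTO (0.0359), ALKBH5 (0.0474) and YTHDF3 (2.13e-07). Of all genes, 26.4% differed there. Among the 3 IGF2BP3 knockout clones, FTO alone of the 10 members differed (adjusted p 0.0272), beside 7.63% of all genes. Between the 2 parental samples 0 of 10 members and 0% of all genes passed, by edgeR and by DESeq2, and 0 members and 254 genes had an unadjusted p under 0.05 in edgeR.

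YTHDF3 and VIRMA stood apart in clone B7. YTHDF3 was at 209.5 and 202 CPM in DMSO and at 174 and 178 CPM in tunicamycin in clone B7. The other 14 DMSO libraries of the study held 129 to 147 CPM and the other 14 tunicamycin libraries 111 to 126 CPM. VIRMA was at 225 and 221 CPM in DMSO and at 209 and 215 CPM in tunicamycin in clone B7, against 154 to 186 CPM and 141 to 181 CPM in the rest. Neither gene overlapped between clone B7 and any other line within a treatment. Relative to the parental mean on the log2 scale, clone B7 was at 0.60 for YTHDF3 and 0.43 for VIRMA, clone F6, made with the same guide RNA, at 0.04 and 0.09, and clone G6 at 0.03 and 0.02. YTHDF3 still fell in tunicamycin within clone B7, where both tunicamycin libraries lay below both DMSO libraries.

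Both genes lie on chromosome 8: YTHDF3 from 63168553 to 63212786 on the plus strand and VIRMA from 94487693 to 94553529 on the minus strand. Over 363 genes of that chromosome with a mean count of at least 100, the median difference of clone B7 from the parental mean was 0.46 on the log2 scale, and 352 of the 363 (97.0%) were higher. The median was 0.46 in DMSO and 0.47 in tunicamycin, and over 5 equal stretches of the chromosome it was 0.53, 0.52, 0.47, 0.43 and 0.37. The other 183 medians of a line on a chromosome, X and the parental samples included, ran from -0.0645 to 0.0574. YTHDF3 ranked 81 and VIRMA 215 of the 363 by this difference. Among the IGF2BP2 knockout clones, 330 of the 363 chromosome 8 genes (90.9%) were called different, against 29.1% of 9851 genes elsewhere with the same minimum count. DNA copy number was not measured, and its part in the levels of YTHDF3 and VIRMA was not tested.

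**Figure D3:**
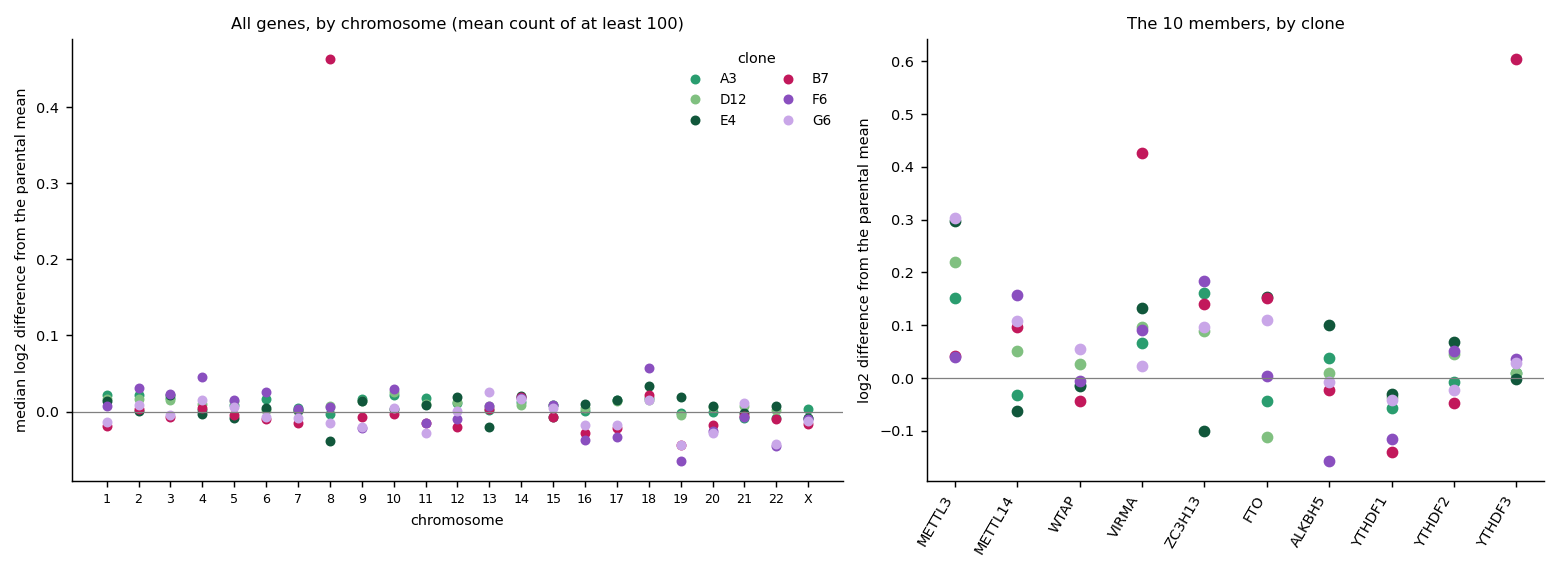
Difference of each knockout clone from the mean of the 2 parental samples, on the log2 CPM scale over both treatments. Left, the median over genes of each chromosome; right, the 10 members. Clone B7 stands at 0.46 on chromosome 8, and elsewhere its median farthest from 0 is -0.0445, on chromosome 19. Its YTHDF3 and VIRMA are at 0.60 and 0.43.

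The remaining differences among clones were smaller. In IGF2BP2 knockout, METTL3 averaged 60.7 ± 8.46 CPM in clone G6 (SD over 4 libraries of both treatments), 50.9 ± 8.96 CPM in clone B7 and 51.2 ± 11.3 CPM in clone F6. ALKBH5 averaged 68.6 ± 3.11 CPM in clone F6, 75.3 ± 2.47 CPM in clone B7 and 76.4 ± 9.34 CPM in clone G6. FTO averaged 51.3 ± 1.71 CPM in clone F6, 56.9 ± 2.22 CPM in clone B7 and 55.3 ± 2.30 CPM in clone G6. Clone G6 was thus high for METTL3 and clone F6 low for both erasers. Clone G6 is also the only clone of its guide RNA, so clone and guide cannot be told apart there. METTL3 kept its call in 5 of 10 alternative fits, and ALKBH5 and FTO in 2 of 10 each. In IGF2BP3 knockout, FTO averaged 57.0 ± 1.31 CPM in clone E4, 49.8 ± 4.23 CPM in clone A3 and 47.4 ± 1.91 CPM in clone D12. All 4 clone E4 libraries lay above those of the other 2 clones, and the FTO difference was lost without clone E4 (adjusted p 0.920).

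Other genes of the m6A pathway were read from 4 lists, described in tunicamycin against DMSO beside the background above. Of 8 other writers and cofactors, 0 were called in parental cells, 1 in IGF2BP3 knockout and 3 in IGF2BP2 knockout, all higher. These were RBM15, an adaptor that brings the writer complex to RNA (0.17, adjusted p 0.0110 in IGF2BP2 knockout), with ZCCHC4, a methyltransferase of ribosomal RNA (0.21), and PCIF1, the cap-adjacent methyltransferase (0.14). RBM15 was also the 1 called in IGF2BP3 knockout (0.17). Of 11 other readers, 1, 1 and 2 were called, all higher: FXR2, a paralogue of FMR1, in parental cells (0.25) and IGF2BP2 knockout (0.20), and YTHDC1, the nuclear reader, in IGF2BP3 knockout (0.15) and IGF2BP2 knockout (0.18). IGF2BP1, the third paralogue of the edited genes, was close to the limit of detection, averaging 0.433 ± 0.158 CPM (SD, n = 4) without tunicamycin in parental cells, and in these comparisons it passed the filter in parental cells alone. RBM15, ZCCHC4, PCIF1, FXR2, YTHDC1 and IGF2BP1, and CNOT7, UPF1 and AHCY below, were picked from their lists for naming after their values were seen.

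The mRNAs of proteins that YTHDF2 works with in decay moved in both directions. Of 7 such genes, 3 rose in each genotype, and 3, 2 and 3 fell. CNOT3 (0.80, 0.70 and 0.77 in parental cells, IGF2BP3 knockout and IGF2BP2 knockout), CNOT1 (0.32, 0.29 and 0.36) and CNOT2 (0.37, 0.30 and 0.32), which form the core and NOT module of CCR4-NOT, rose in all 3. POP1 (-0.65, -0.56 and -0.62), a subunit of RNase P and MRP, and RIDA (-0.27, -0.20 and -0.25), described as the bridge between YTHDF2 and that nuclease, fell in all 3. CNOT7, a deadenylase subunit, differed by 0.00, -0.03 and 0.02. UPF1, an RNA helicase of mRNA surveillance, fell in parental cells (-0.19) and IGF2BP2 knockout (-0.18) and was at -0.12 in IGF2BP3 knockout (adjusted p 0.113).

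Of 3 genes of S-adenosylmethionine supply, the methyl donor of the writers, 2 were called in each genotype. MAT2A, the catalytic subunit of methionine adenosyltransferase, fell by 0.46, 0.43 and 0.42 on the log2 scale, and MAT2B, its regulatory subunit, rose by 0.19, 0.16 and 0.18. AHCY, which removes the product of methylation, differed by 0.02, 0.03 and -0.02. In all 6 comparisons between genotypes, 0 genes of these 4 lists were called. CNOT7, RIDA and POP1 also lie on chromosome 8, and in clone B7 they stood 0.58, 0.56 and 0.29 above the parental mean.

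**Figure D4:**
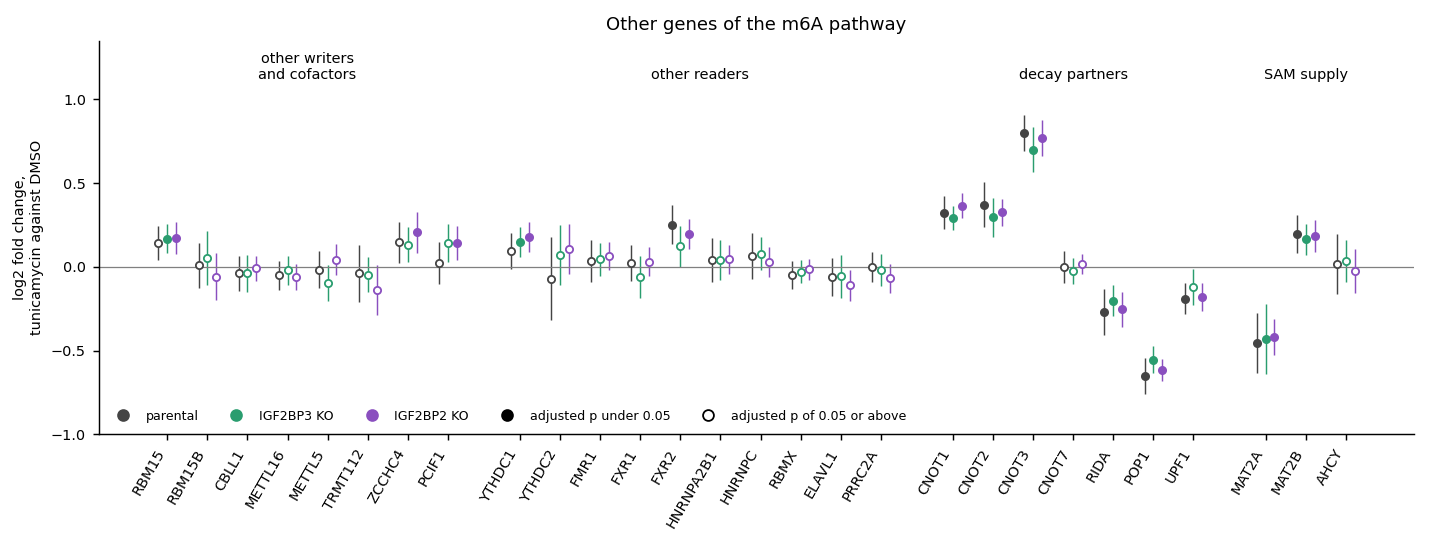
Log2 fold change of tunicamycin against DMSO, with 1.96 SE to each side, for the other genes of the m6A pathway that were tested in all 3 genotypes. Filled points have an adjusted p under 0.05; CNOT3 is highest (0.70 to 0.80) and POP1 lowest (-0.65 to -0.56).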

How the data were processed

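The authors deposited 1 table of whole-number counts, with 60660 gene identifiers in rows and the 32 libraries of poly(A)-selected RNA in columns. Per the labels' protocols, a directional kit was used and reads were paired, of 100 bases. The submitters' processing notes name STAR 2.7.5c and the build hg38, and the counting tool, annotation and strand setting are not given in the sources used here. Groups follow the sample titles. Members, lists and comparisons were chosen with earlier results of these data known.

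Each comparison was fitted on the libraries compared with edgeR 4.0.16 in R 4.3.3 (TMM, filterByExpr, quasi-likelihood test), with p-values adjusted over all genes (Benjamini-Hochberg) and a threshold of 0.05. The line was a term in fits of treatment and of interactions, treatment was a covariate in fits among lines, and fits of genotype had neither. The SE follows from the F statistic. CPM values were scaled over all 32 libraries, and log2 CPM used a prior count of 2. Intervals are 1.96 SE to each side, a normal multiplier, and so are narrower than the quasi-likelihood test implies. For VIRMA in parental cells the interval of the tunicamycin difference was -0.215 to -0.00202, beside an unadjusted p of 0.0750 in that test. Alternatives were DESeq2 1.42.0, DESeq2 size factors with the edgeR test, all genes with any count, a minimum mean CPM of 1, a replicate block, one fit of all libraries, sums per line, leaving out the line term, and leaving out the clone G6 controls, single clones or single parental libraries. The fits were tested on simulated counts. A chi-square statistic of the counts, per degree of freedom, was 4.64 to 25.6 over the 16 replicate pairs and 1.71 to 7.91 over the 4 pairs of parental samples, so no library was counted as a duplicate.

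All 10 members were named. Other pathway genes were named where called in all 3 genotypes in tunicamycin, and those outside this rule are marked in the text. The 3 genes most like a member were those with the highest correlation to the member with the largest change in parental cells. Gene positions and exon lengths are those of GENCODE release 29 on GRCh38, and the counts may rest on another annotation. Promoter windows are RefSeq's on GRCh38.p14. A name table gave a symbol for 60463 of the identifiers.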

Additional observations from a re-analysis of the deposited data

Results flagged for a closer look

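Each member was looked at in each group of 4 or more libraries for a library far from the rest, by Dixon's criterion, in 60 groups in all. Chance flags about 1 in 20 groups, and 3 were flagged. METTL14 in clone F6 replicate 2 in tunicamycin, at 50.3 CPM, lay above the other 5 libraries of IGF2BP2 knockout (45.9 to 47.3 CPM). WTAP in clone D12 replicate 1 in DMSO, at 98.9 CPM, lay above the other 5 of IGF2BP3 knockout (88.4 to 91.5 CPM). VIRMA in clone A3 replicate 1 in tunicamycin, at 149 CPM, lay below the other 5 of IGF2BP3 knockout (169 to 181 CPM). None of these 3 genes was called in the comparison of tunicamycin with DMSO in that genotype.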

How the results depend on the processing

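For tunicamycin against DMSO, leaving out 1 line or parental library gave 2 to 3 called members in parental cells, 3 in IGF2BP3 knockout and 4 to 5 in IGF2BP2 knockout. With the replicate block 5 members were called in parental cells, adding METTL3 and VIRMA, and 1 (METTL3) in IGF2BP3 knockout against parental cells in DMSO. With no line term 3 were called in IGF2BP2 knockout. Between genotypes, all 32 libraries in one fit called 1 member in IGF2BP2 knockout against parental cells in DMSO and 2 in tunicamycin, and 1 and 2 between the knockouts. That fit has 1 mean per line and treatment, so its error is the spread between the 2 libraries of a line and treatment. Unlike in the main fits between genotypes, spread between clones does not count against a difference there, and clones do not serve as replicates. In IGF2BP2 knockout against parental cells in DMSO it called 156 of all genes, where the main fit called 2. Differences among IGF2BP3 knockout clones gave 0 to 1 called members when 1 clone was left out. Differences among IGF2BP2 knockout clones gave 0 to 4 when 1 clone was left out (0 without clone B7), 3 with DESeq2, with its size factors in edgeR, with no filter and without the clone G6 control libraries, and 2 with a mean CPM of at least 1 and with all 32 libraries in one fit. No named member changed direction where it was called.

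The replicate numbers did not meet the criterion for pairing. Differences between replicates 1 and 2 correlated across lines and treatments with r from 0.0878 to 0.549 (median 0.375), and 119 of 120 pairs exceeded 0.1 where all had to. The main fits therefore left out the replicate number, although levels moved with it. For tunicamycin in parental cells 3854 genes were called without the replicate block and 5989 with it. Pairs of treated and control libraries by replicate number are descriptive only. Each member had at least 602 counts in each library, and the comparisons between genotypes rest on 2 parental samples and 3 clones per knockout. The chi-square statistic was 1.71 to 7.91 between parental samples of one replicate number and 4.64 to 25.6 between replicate libraries of a line. The titles name the parental samples only as sample 1 and sample 2. The parental side may thus hold little spread between sources.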
